A study of Homo sapiens with 10 samples.

Results

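The keratins followed here are the 10 genes KRT5, KRT7, KRT8, KRT14, KRT15, KRT17, KRT18, KRT19, KRT80 and KRT38, named as a set because they include the chief keratins of simple and of basal epithelium. They were taken by gene name from RNA-seq tables of 4 lines of PC3, a human prostate cancer cell line, and make up 10 of 23170 gene entries and 12 of 37557 isoform entries. PC3-Epi (2 samples) is a luciferase-positive subpopulation with a stable epithelial form. PC3-EMT14 (3 samples) is a mesenchymal subpopulation isolated after PC3-Epi had been co-cultured with macrophages made from CD14+ monocytes treated with IL4. PC3-EMT14-OVOL1 (3 samples) was made from PC3-EMT14 by a lentivirus that expresses the transcription factor OVOL1, and PC3-EMT14-OVOL2 (2 samples) by one that expresses OVOL2 in a backbone with a V5 tag, each followed by selection. All 4 therefore descend from PC3, and each is a single isolated or transduced line. The labels of the PC3-EMT14 samples name no empty vector, so lentiviral transduction and the OVOL gene cannot be told apart in the comparisons with the OVOL lines.

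Keratins are the intermediate filament proteins of epithelial cells, and a filament forms only when a type I (acidic) chain pairs with a type II (basic) chain. KRT8 and KRT18 are the standard pair of simple epithelia, where KRT7 (type II) and KRT19 (type I) join them. KRT5 and KRT14 are the pair of the basal layer of stratified epithelia and of basal cells in the prostate. KRT15 is a further type I keratin of basal cells, and KRT17 is a type I keratin of skin appendages that is induced on injury. KRT80 is a type II keratin linked to desmosomes, the junctions that anchor keratin filaments, and KRT38 is a type I keratin of hair. Loss of epithelial keratins in favour of vimentin is a usual mark of the epithelial to mesenchymal transition.

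The unit throughout is FPKM, fragments scaled to transcript length and, by upper-quartile normalization, to the library, which allows levels of different genes to be compared. Each table holds 1 pooled FPKM per line, so no spread between samples, standard error or test could be computed, the depth of each sample is unknown, and every difference given here is a description of 4 pooled values. A fold is the ratio of the 2 FPKM values of 1 table, read only where the higher line reached 1 FPKM and neither line was at 0. Values of the same line differed between tables by a nearly constant factor (median ratio 0.969 to 1.01), so levels set side by side across lines carry that uncertainty. The PC3-EMT14 level quoted in such lists is the one from the table with PC3-Epi. In a bulk culture, fewer cells that express a gene and less RNA per cell cannot be told apart.

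The label genes matched the line names. OVOL1 stood at 0.0238 FPKM in PC3-EMT14, against 11.3 FPKM in PC3-EMT14-OVOL1, and OVOL2 at 0.370 FPKM in PC3-EMT14, against 831 FPKM in PC3-EMT14-OVOL2, so the transduced genes were not present at like levels. In PC3-Epi, OVOL1 stood at 4.25 FPKM and OVOL2 at 9.91 FPKM. CDH1 (E-cadherin, the adhesion protein of epithelial junctions) was listed at 1.00 FPKM in PC3-EMT14, 16.2 in PC3-EMT14-OVOL1, 39.2 in PC3-EMT14-OVOL2 and 50.6 in PC3-Epi. EPCAM, an epithelial surface protein, followed the same order of lines at 23.4, 87.6, 151 and 224 FPKM. ZEB1, a repressor of epithelial genes, ran the other way at 7.59, 4.25, 1.77 and 0.130 FPKM. Of the prostate lineage genes, KLK3 was listed at 0 in every line and TP63 (a basal cell factor) reached at most 0.174 FPKM. Of 14 macrophage markers, 13 were under 0.2 FPKM in every line, C1QA, C1QB and C1QC at 0 among them. The other, CD68, which many cells express in lysosomes, stood between 51.2 and 57.8 FPKM in the 3 PC3-EMT14 lines and at 13.2 FPKM in PC3-Epi.

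The simple keratins were abundant in all 4 lines, and the basal pair was close to absent. KRT19 was the highest of the 10 genes in 3 lines and KRT7 in PC3-Epi, whereas KRT5 and KRT14 did not reach 0.1 FPKM in any line. In the ranking of all 23170 gene entries from the top, KRT19 held place 67 in PC3-EMT14, 89 in PC3-EMT14-OVOL1, 32 in PC3-EMT14-OVOL2 and 67 in PC3-Epi. KRT7 moved from place 267 in PC3-EMT14 to 152 in PC3-EMT14-OVOL1, 46 in PC3-EMT14-OVOL2 and 62 in PC3-Epi. KRT18 stood at place 653 and KRT8 at place 942 in PC3-EMT14, so all 4 simple keratins were among the more abundant RNAs of the mesenchymal line too. KRT15 stood at place 2852 there, KRT80 at 4911 and KRT38 at 11980. The label "simple and basal keratins" therefore fits these lines on the simple side and, among the basal genes, for KRT15 alone.

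**Figure D1:**
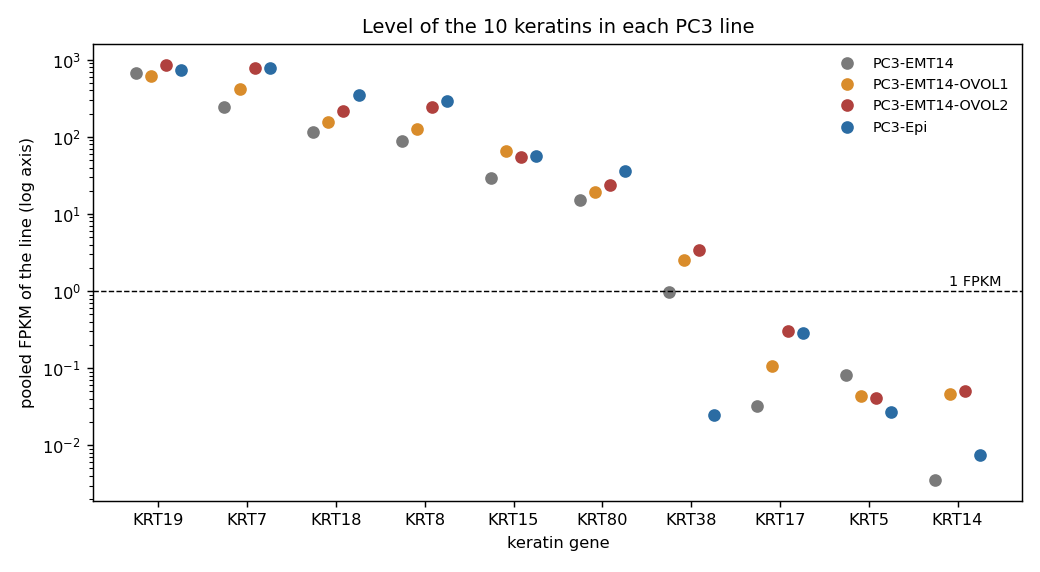
Pooled FPKM of each of the 10 keratins (x axis) on a log axis, 1 point per line and no error bar, since each line has 1 pooled value. The KRT19, KRT7, KRT18 and KRT8 points all lie above 80 FPKM, KRT15 and KRT80 lie between 15.2 and 64.7 FPKM, and the KRT17, KRT5 and KRT14 points all lie under the dashed line at 1 FPKM.

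Among the type II simple keratins, KRT7 showed the largest absolute difference. KRT7 was listed at 246 FPKM in PC3-EMT14, 415 FPKM in PC3-EMT14-OVOL1, 786 FPKM in PC3-EMT14-OVOL2 and 779 FPKM in PC3-Epi. The OVOL2 line and the epithelial line thus stood side by side, with the OVOL1 line between them and PC3-EMT14. Within the tables, the fold against PC3-EMT14 was 1.72 for PC3-EMT14-OVOL1 (log2 0.78), 3.30 for PC3-EMT14-OVOL2 (log2 1.72) and 3.17 for PC3-Epi (log2 1.66).

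KRT8, the usual type II chain of simple epithelia, had levels of 87.7 FPKM in PC3-EMT14, 128 FPKM in PC3-EMT14-OVOL1, 244 FPKM in PC3-EMT14-OVOL2 and 296 FPKM in PC3-Epi. The same order of lines held as for E-cadherin, with PC3-Epi highest. Its folds against PC3-EMT14 were 1.49 with OVOL1 (log2 0.58), 2.88 with OVOL2 (log2 1.52) and 3.37 in PC3-Epi (log2 1.75).

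KRT18, the type I partner of KRT8, was listed at 117 FPKM in PC3-EMT14, 156 FPKM in PC3-EMT14-OVOL1, 215 FPKM in PC3-EMT14-OVOL2 and 351 FPKM in PC3-Epi. It was 3.00-fold higher in PC3-Epi (log2 1.58) but 1.90-fold higher with OVOL2 (log2 0.92) and 1.36-fold higher with OVOL1 (log2 0.45). The partners therefore had like folds in PC3-Epi, while in the OVOL2 line the KRT8 fold was the larger of the pair.

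KRT19, a type I keratin with a very short tail domain, varied least of the 4. Its levels were 671 FPKM in PC3-EMT14, 608 FPKM in PC3-EMT14-OVOL1, 862 FPKM in PC3-EMT14-OVOL2 and 742 FPKM in PC3-Epi. The folds against PC3-EMT14 were 0.926 (log2 -0.11), 1.33 (log2 0.41) and 1.11 (log2 0.14) in that order, and KRT19 was the only member at or above 1 FPKM that was listed lower than PC3-EMT14 in the OVOL1 line. With no spread between samples at hand, these values cannot be told from equal levels.

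KRT15 was the only gene of the basal group that reached 1 FPKM. It stood at 29.3 FPKM in PC3-EMT14, 64.7 FPKM in PC3-EMT14-OVOL1, 54.3 FPKM in PC3-EMT14-OVOL2 and 56.9 FPKM in PC3-Epi. The 3 other lines lay close together and above PC3-EMT14, with folds of 2.26 (log2 1.17), 1.91 (log2 0.94) and 1.94 (log2 0.96), of which only that of the OVOL1 line is past 2-fold.

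KRT80 was listed at 15.2 FPKM in PC3-EMT14, 19.2 FPKM in PC3-EMT14-OVOL1, 23.5 FPKM in PC3-EMT14-OVOL2 and 35.9 FPKM in PC3-Epi. As for KRT8 and KRT18, PC3-Epi was highest. The folds were 1.29 (log2 0.36), 1.59 (log2 0.67) and 2.36 (log2 1.24).

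KRT38, the hair keratin of the set, had another pattern. It was listed at 0.975 FPKM in PC3-EMT14, 2.56 FPKM in PC3-EMT14-OVOL1, 3.36 FPKM in PC3-EMT14-OVOL2 and 0.0248 FPKM in PC3-Epi. The folds of the OVOL lines were 2.68 (log2 1.42) and 3.56 (log2 1.83), and the gene passed the minimum of 1 FPKM only through the lines in which it was high. In the table with PC3-Epi it stayed under that minimum, so no fold is read, although PC3-Epi had the lowest value of the 4.

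The remaining basal genes were under 1 FPKM in every line, and no fold is read from them. KRT17 was listed at 0.0321 FPKM in PC3-EMT14, 0.108 FPKM in PC3-EMT14-OVOL1, 0.300 FPKM in PC3-EMT14-OVOL2 and 0.285 FPKM in PC3-Epi. KRT5 was listed at 0.0823, 0.0431, 0.0411 and 0.0270 FPKM in the same order of lines. KRT14 was listed at 0.00354, 0.0465, 0.0508 and 0.00750 FPKM. KRT5, the usual type II partner in basal cells, was thus under 0.1 FPKM in every line while KRT15 lay between 29.3 and 64.7 FPKM.

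**Figure D2:**
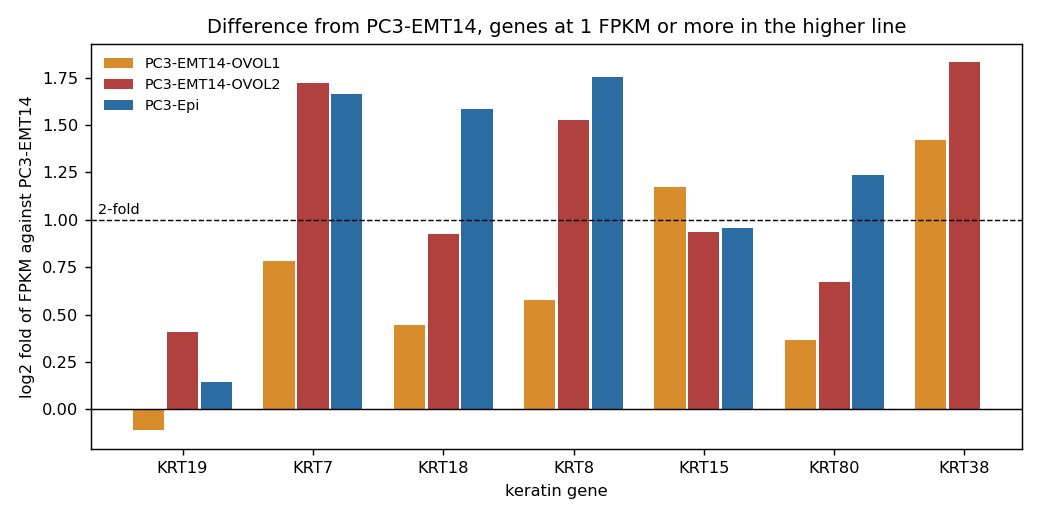
Log2 fold of FPKM against PC3-EMT14 (y axis) for the 7 keratins that reached 1 FPKM, 1 bar per line (no error bars, 1 pooled value a line). The KRT7, KRT8 and KRT38 bars of PC3-EMT14-OVOL2 pass the dashed 2-fold line, as do the KRT7, KRT8, KRT18 and KRT80 bars of PC3-Epi. KRT38 has no PC3-Epi bar because it was under 1 FPKM in that table.

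Counts past 2-fold put these folds beside all genes. With OVOL1, 7 of the 10 keratins were at 1 FPKM or more, 2 of them (KRT15 and KRT38) were at least 2-fold higher than in PC3-EMT14 and 0 were at least 2-fold lower, where 2.06% of 12111 genes were higher and 1.23% lower by that rule. With OVOL2, 3 of 7 (KRT7, KRT8 and KRT38) were higher and 0 lower, against 4.16% and 2.58% of 12226 genes. In PC3-Epi, 4 of 6 (KRT7, KRT8, KRT18 and KRT80) were higher and 0 lower, against 7.09% and 7.96% of 12344 genes. KRT38 entered the counts of the OVOL lines only through the line where it was high, and its low value in PC3-Epi was left out by the same minimum, so its call and the absence of lower calls are partly set by that minimum. Among genes at 1 FPKM or more in both lines, 1 of 6 keratins was at least 2-fold higher with OVOL1 (all genes 1.2%), 2 of 6 with OVOL2 (2.5%) and 4 of 6 in PC3-Epi (4.71%). The median log2 fold was 0.58 with OVOL1 (7 keratins), 0.94 with OVOL2 (7) and 1.41 for PC3-Epi (6), over the keratins that passed the minimum. Over all genes that passed it, the medians were -0.00, -0.04 and -0.01. The keratin medians of the OVOL lines include KRT38, let in by the line where it was high, and that of PC3-Epi leaves it out. They therefore rest on different sets, set partly by the minimum. These 3 comparisons share the PC3-EMT14 samples, so they are not independent of each other. The genes were chosen with earlier results of these data known, and their counts are a description.

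**Figure D3:**
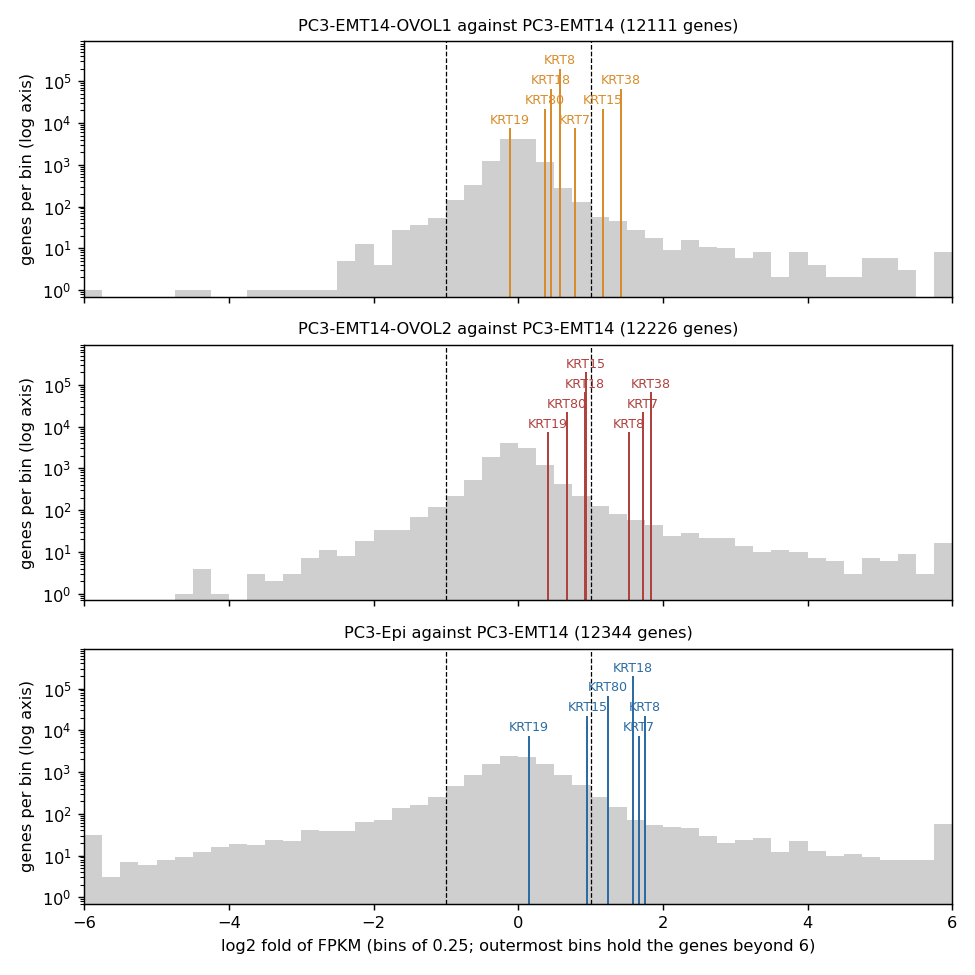
Number of genes (log axis) per bin of log2 fold against PC3-EMT14, 1 panel per line, for all genes at 1 FPKM or more in the higher line, with the keratins drawn as labelled vertical lines whose height has no meaning. Dashed lines mark 2-fold in each direction. In the PC3-Epi panel 5 of the 6 keratins lie to the right of 0.9, and KRT19 lies between -0.11 and 0.41 in the 3 panels.

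Between the OVOL lines, 7 of the 10 keratins were at 1 FPKM or more, and 0 of these were past 2-fold in either direction. Of 12113 genes, 1.68% were higher in the OVOL2 line and 0.801% lower, so nothing is read about the keratins from that count. KRT17 stayed under 1 FPKM in both, at 0.106 FPKM with OVOL1 and 0.300 FPKM with OVOL2, and is not counted. KRT7 was listed at 410 FPKM with OVOL1 and 786 FPKM with OVOL2, a fold of 1.92, and KRT8 at 127 and 244 FPKM, a fold of 1.93. The other folds of OVOL2 over OVOL1 were 1.43 for KRT19, 1.39 for KRT18, 1.33 for KRT38, 1.24 for KRT80 and 0.849 for KRT15. KRT15 was thus the only one of the 7 listed lower with OVOL2 than with OVOL1. OVOL2 RNA in its line was far above OVOL1 RNA in the other, so a difference between the factors and a difference in their amount cannot be told apart.

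Because a filament needs a chain of each type, the levels were also added by type. Over the 10 genes, type II FPKM summed to 349 in PC3-EMT14, 562 in PC3-EMT14-OVOL1, 1054 in PC3-EMT14-OVOL2 and 1110 in PC3-Epi. Type I FPKM summed to 818, 831, 1135 and 1150 in the same order. The ratio of type II to type I was therefore 0.427 in PC3-EMT14, 0.676 in PC3-EMT14-OVOL1, 0.929 in PC3-EMT14-OVOL2 and 0.966 in PC3-Epi. RNA of the type I chains exceeded RNA of the type II chains in every line within this set, and by the most in PC3-EMT14. KRT7 made up between 70.1% and 74.6% of the type II sum in all 4 lines. On the type I side KRT19 made up 82.0% in PC3-EMT14 and 64.5% in PC3-Epi, while the share of KRT18 was 14.3% in PC3-EMT14, 18.8% with OVOL1, 18.9% with OVOL2 and 30.5% for PC3-Epi.

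**Figure D4:**
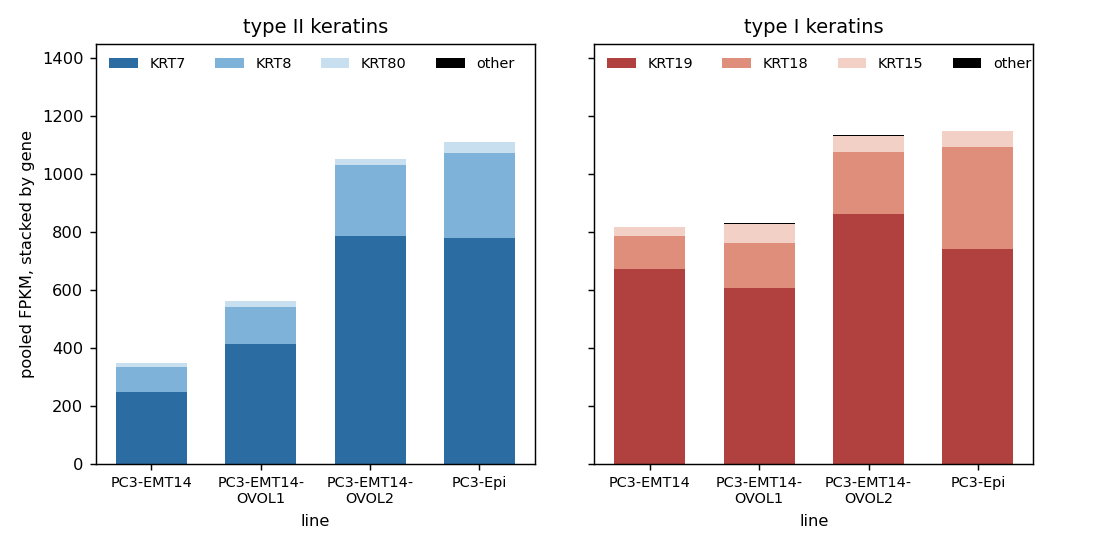
Pooled FPKM stacked by gene for the type II (left) and type I (right) keratins of the set in each line. Genes under 4 FPKM in every line are stacked as other, there are no error bars, and both axes start at 0. The type II columns range from 349 to 1110 FPKM and the type I columns from 818 to 1150 FPKM.

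The sums over all keratin genes had another order of lines. KRT81, a hair keratin next to KRT7, was listed at 1752 FPKM in PC3-EMT14, against 1282 FPKM in PC3-Epi, but at 0 in both OVOL lines, with the Cuffdiff status HIDATA, which marks a locus with too many fragments to process. Those zeros are not measured levels. Summed as listed, the ratio of type II to type I over all keratin genes was 2.73 in PC3-EMT14, 1.16 with OVOL1, 1.43 with OVOL2 and 2.18 for PC3-Epi. Without KRT81 alone it was 0.775, 1.16, 1.43 and 1.08, so both OVOL lines still stood above PC3-Epi. Without all of KRT81 to KRT86 it was 0.656, 0.799, 0.918 and 0.998, in the same order of lines as within the set. Both of these sums were chosen after the values had been seen.

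The members lie in the genome's 2 keratin clusters. On chromosome 12 (build hg19, starts counted from 1), KRT80 lies at chr12:52562780-52585784 on the minus strand, KRT7 at chr12:52626954-52642709 on the plus strand, KRT5 at chr12:52908359-52914243 on the minus strand, KRT8 at chr12:53290971-53298868 on the minus strand and KRT18 at chr12:53342655-53346685 on the plus strand. On chromosome 17, all on the minus strand, KRT38 lies at chr17:39592621-39597596, KRT15 at chr17:39669997-39675270, KRT19 at chr17:39679869-39684641, KRT14 at chr17:39738531-39743147 and KRT17 at chr17:39775692-39780882. Of 27 keratin genes in order along chromosome 12, 15 reached 1 FPKM in at least 1 line. They were the first 12 in order, KRT4, KRT8 and KRT18. KRT80 and KRT7 open the order, KRT8 and KRT18 close it, and the 10 genes from KRT5 (place 13) to KRT3 (place 22) all stayed under 1 FPKM. On chromosome 17, 9 of 27 reached 1 FPKM in at least 1 line, among them the neighbours KRT15 and KRT19, which had different patterns.

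**Figure D5:**
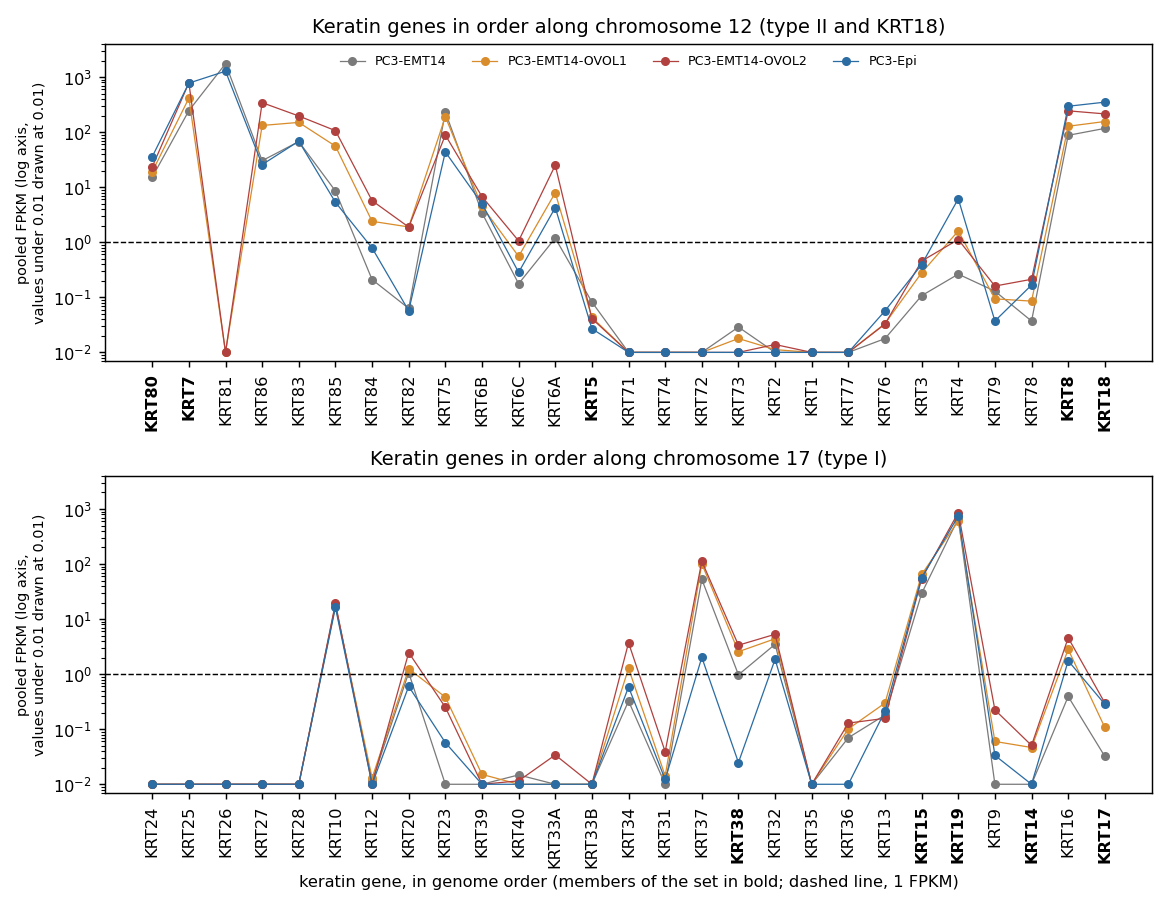
Pooled FPKM (log axis) of the keratin genes in their order along chromosome 12 (top) and chromosome 17 (bottom), 1 point per line joined for reading, with the members of the set in bold and values under 0.01 drawn at 0.01. The KRT81 points of both OVOL lines are not measured levels but zeros with the status HIDATA. KRT7 with KRT80 and KRT8 with KRT18 stand at opposite ends of the chromosome 12 order.

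The 44 other keratin genes were counted in the same way. Over all genes, 2.06% were higher and 1.23% lower with OVOL1, 4.16% and 2.58% with OVOL2, and 7.09% and 7.96% in PC3-Epi. With OVOL1, 15 of the 44 were at 1 FPKM or more in the higher line and above 0 in both. Of these, 9 were at least 2-fold higher and 0 lower. With OVOL2, 16 passed, with 13 higher and 1 lower. Of the higher ones, 5 with OVOL1 (KRT4, KRT16, KRT34, KRT82 and KRT84) and 6 with OVOL2 (these and KRT6C) reached 1 FPKM only in the OVOL line, so the minimum itself fixed their direction. KRT82 to KRT86, which lie beside KRT81, are all among the higher genes in both OVOL lines. KRT81 itself is in neither count, since it was listed at 0 there. At 1 FPKM or more in both lines, 4 of 10 other keratins were higher with OVOL1 (all genes 1.2%), 7 of 10 with OVOL2 (2.5%) and 1 of 10 in PC3-Epi (4.71%). By the same rule 0, 1 and 2 of the 10 were lower, against 86 of 11670, 206 of 11621 and 591 of 11367 genes. From the single higher gene in PC3-Epi nothing is read. In PC3-Epi, 13 passed, with 3 higher and 2 lower, and the median log2 fold was -0.24. Over the 6 keratins of the set that passed there, KRT38 not among them, the median was 1.41. KRT85, a hair keratin, was listed at 8.54 FPKM in PC3-EMT14, 55.8 with OVOL1, 107 with OVOL2 and 5.33 for PC3-Epi. KRT6A, a type II keratin of injured and stratified epithelium, stood at 1.19, 7.94, 25.1 and 4.26 FPKM, and KRT16, its type I partner, at 0.393, 2.82, 4.58 and 1.75 FPKM. KRT84 and KRT82 stood at 0.210 and 0.0630 FPKM in PC3-EMT14 and at 5.70 and 1.89 FPKM with OVOL2. KRT81, a close relative of these hair keratins, was listed at 0 as HIDATA in both OVOL lines. Its part in their values, and in the counts that include them, was not tested. KRT4, a keratin of mucosal epithelium, was highest in PC3-Epi at 6.15 FPKM, against 0.264 FPKM in PC3-EMT14. KRT34 stood at 0.326 FPKM in PC3-EMT14, against 3.72 FPKM with OVOL2, and KRT20 at 1.07 and 2.47 FPKM.

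KRT37, the neighbour of KRT38 on chromosome 17, was listed at 52.8 FPKM in PC3-EMT14, 101 with OVOL1, 113 with OVOL2 and 2.02 for PC3-Epi. Both hair keratins were thus higher in the OVOL lines and lowest in PC3-Epi. The longest coding transcript of KRT38 shares 7.04% of its 50-base words with KRT37. How many of the KRT38 fragments come from KRT37 was not tested. Chosen after their values had been seen, KRT75 stood at 232, 191, 88.6 and 43.8 FPKM and KRT86 at 30.3, 132, 344 and 25.7 FPKM in the usual order of lines. KRT75 thus ran opposite to KRT7 and KRT8. The KRT86 transcript shares 32.8% of its 50-base words with KRT81, and its high values fall in the lines where KRT81 was listed at 0 as HIDATA. The part of this in the KRT86 values was not tested.

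The reads were 50 bases long per end, so stretches shared with other genes limit some members. Counting every 50-base word of the longest coding transcript on either strand against all annotated transcripts, 44.6% of KRT18 words occur in another gene, with KRT8 holding the most (19.8%), and the annotated KRT8 gene overlaps the KRT18 locus on the opposite strand. Of KRT7 words 11.7% are shared, nearly all with the antisense gene KRT7-AS (11.2%). For KRT14 the share was 24.2% and for KRT17 18.3%, while for KRT8 it was 3.73%, for KRT19 1.79%, for KRT80 0.416% and for KRT15 0. KRT15 thus had no such word in common with another annotated gene. Whether the libraries kept strand is not given in the sources used here, and without it reads of KRT18 and of the overlapping KRT8 transcripts, of KRT7 and KRT7-AS, and of KRT80 and LINC00592 cannot be told apart. KRT18 values are to be read with that limit.

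Only 2 members had more than 1 isoform entry. KRT80 had TCONS_00008590 and TCONS_00008591, and the first made up 36.9% of KRT80 FPKM in PC3-EMT14, 44.7% with OVOL1, 41.7% with OVOL2 and 44.7% for PC3-Epi. TCONS_00008590 was listed at 5.62 FPKM in PC3-EMT14, against 16.1 FPKM in PC3-Epi, a fold of 2.86, and TCONS_00008591 at 9.61 and 19.9 FPKM, a fold of 2.07. Both KRT80 isoforms were thus higher in PC3-Epi, the first by the larger fold. KRT18 had the minor entry TCONS_00007667, at 2.25 FPKM in PC3-EMT14, 2.71 with OVOL1, 2.46 with OVOL2 and 2.30 for PC3-Epi, and the main entry TCONS_00007668, at 115 FPKM in PC3-EMT14, against 349 FPKM in PC3-Epi. The minor entry varied little in level, and its share of KRT18 was 1.92% in PC3-EMT14 and 0.654% in PC3-Epi. Since an isoform entry is placed at its gene's locus alone, the exons that differ were not analysed here.

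For 3 of the 10 members a promoter was found in the RefSeq table used (GRCh38.p14, 250 bases before to 50 after the gene start, written 5′ to 3′ on the gene's strand). All 3 found are shown, and their genes differ in pattern, KRT8 (higher with OVOL2 and in PC3-Epi), KRT38 (higher with both OVOL factors) and KRT5 (under 0.1 FPKM in every line). Capitals mark CACCTG, an E-box form bound by ZEB1, on either strand. They also mark the core promoter element TATAAA. KRT8 lies at chr12:52926420-52926719, KRT38 at chr17:41440934-41441233 and KRT5 at chr12:52520345-52520644, all on the minus strand.
KRT8: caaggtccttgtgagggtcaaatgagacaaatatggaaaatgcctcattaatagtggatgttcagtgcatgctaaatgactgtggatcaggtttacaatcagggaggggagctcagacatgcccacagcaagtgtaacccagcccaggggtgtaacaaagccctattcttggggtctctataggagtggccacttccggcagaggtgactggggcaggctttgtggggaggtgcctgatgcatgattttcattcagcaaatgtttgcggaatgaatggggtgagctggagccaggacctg
KRT38: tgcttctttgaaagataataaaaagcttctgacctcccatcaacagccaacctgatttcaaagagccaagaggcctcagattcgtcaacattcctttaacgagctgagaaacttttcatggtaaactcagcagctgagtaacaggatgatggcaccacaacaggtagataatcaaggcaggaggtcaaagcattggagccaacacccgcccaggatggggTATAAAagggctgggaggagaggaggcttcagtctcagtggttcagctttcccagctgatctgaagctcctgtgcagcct
KRT5: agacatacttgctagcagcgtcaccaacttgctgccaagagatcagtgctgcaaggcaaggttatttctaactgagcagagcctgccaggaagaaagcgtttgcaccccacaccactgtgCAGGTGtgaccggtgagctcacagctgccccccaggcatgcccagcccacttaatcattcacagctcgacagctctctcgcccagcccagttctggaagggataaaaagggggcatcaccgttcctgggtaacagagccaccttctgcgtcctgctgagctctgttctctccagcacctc
KRT5 holds the E-box at position -130 from the start, read there as CAGGTG, KRT38 holds the TATA element at position -30, and KRT8 holds neither. CACCTG on either strand occurs in 20.6% of 35116 promoters of this length and TATAAA in 11.5%. The general E-box CANNTG, which includes CACCTG, occurs in all 3 and in 68.7% of all promoters. CCGTTA, the core letters of OVOL sites, was searched on both strands and occurs in none of the 3 and in 3.07% of all promoters. These letter matches are descriptions and not sites of binding. For KRT8 the annotated gene in the hg19 annotation reaches 53343738, well past the end of the deposited entry at 53298868. The start shown may therefore not be the one from which the measured RNA began. What KRT8 holds or lacks is read for the stretch shown alone, and not for the measured KRT8 RNA.

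Genes that anchor or regulate keratin filaments were taken as a fixed group of 19, of which 17 reached 1 FPKM with OVOL1 and 18 in each of the other comparisons with PC3-EMT14. At least 2-fold higher were 1 with OVOL1, 7 with OVOL2 and 5 for PC3-Epi, and 0 were lower by 2-fold. Of all genes, 2.06%, 4.16% and 7.09% were higher and 1.23%, 2.58% and 7.96% lower. With so few genes in the group, nothing is read from the 0 lower. The single call with OVOL1 is 5.88% of its 17 genes. PLEC (plectin) is counted among the 19 although its entries had the status FAIL in every table. DSP (desmoplakin, which ties keratin filaments to desmosomes) was listed at 3.13 FPKM in PC3-EMT14, 5.25 with OVOL1, 7.23 with OVOL2 and 12.5 for PC3-Epi. PKP3 (plakophilin 3, a desmosome plaque protein) stood at 13.5, 23.4, 40.2 and 29.1 FPKM. ITGB4, the integrin of hemidesmosomes, which anchor keratins to the basement membrane, stood at 102, 209, 269 and 125 FPKM, and COL17A1, also of hemidesmosomes, at 1.62, 2.79, 7.98 and 1.11 FPKM. EPPK1 (epiplakin, a keratin binding protein) reached 1.84 FPKM in PC3-Epi from 0.0321 FPKM in PC3-EMT14. With OVOL2 it stood at 1.07 FPKM, against 0.0311 FPKM. EPPK1 is among the higher genes of both comparisons. It reached 1 FPKM only in the line where it was high, so the minimum itself fixed its direction. DSP thus had its lines in the order of KRT8, whereas PKP3, ITGB4 and COL17A1 were highest in the OVOL2 line.

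Of 16 other intermediate filament genes, 9 reached 1 FPKM with OVOL1, 10 with OVOL2 and 9 for PC3-Epi. Of these 0, 1 and 0 were at least 2-fold higher and 0, 1 and 4 at least 2-fold lower. Of all genes, 2.06%, 4.16% and 7.09% were higher and 1.23%, 2.58% and 7.96% lower. The calls with OVOL2 are single genes of 10, and from these and from the counts of 0 nothing is read about the group. VIM (vimentin, the filament protein of mesenchymal cells) was listed at 271 FPKM in PC3-EMT14, 183 with OVOL1, 76.9 with OVOL2 and 42.5 for PC3-Epi. In PC3-EMT14 it was thus close to KRT7 (246 FPKM), and in the other 3 lines under it. NEFL (a neurofilament) stood at 132, 106, 106 and 19.4 FPKM. BFSP1 and SYNC stood at 2.55 and 5.53 FPKM in PC3-EMT14 and 0.877 and 2.45 FPKM in PC3-Epi. PRPH (peripherin) was the gene higher with OVOL2, at 1.54 FPKM against 0.633 FPKM. It reached 1 FPKM only in the OVOL2 line. BFSP1, among the genes lower in PC3-Epi, reached 1 FPKM only in PC3-EMT14 in that comparison. The minimum itself thus fixed the direction of both.

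The genes with the pattern most like each simple keratin were sought over the 3 log2 folds against PC3-EMT14, by Euclidean distance among 11988 genes. Nearest to KRT7 were LOC388564 (distance 0.103), TBC1D2 (0.152) and C10orf95 (0.230), with KRT8 at place 7 (0.301). For KRT8 they were RNF43 (0.181), TBC1D2 (0.194) and CLDN1 (0.206), with KRT7 at place 9. KRT18 had WWC1 (0.117), HR (0.137) and C8orf73 (0.156), with KRT80 at place 46 and its partner KRT8 at place 150. For KRT19 they were PGBD4 (0.0225), PLEKHG3 (0.0642) and LOC391322 (0.0909). In this measure KRT7 and KRT8, both type II, lay nearer to each other than either did to KRT18 or KRT19. The measure rests on 3 pooled folds that share 1 reference line, and carries no test.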

How the data were processed

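RNA of 10 samples in 4 lines was sequenced with paired ends. The authors used TopHat for alignment to the hg19 transcriptome of UCSC and Cuffdiff to compare lines in pairs, with upper-quartile normalization and corrections for sequence bias and multiple mapping. The deposited FPKM values are pooled over the samples of a line, 1 per line and table (4 gene and 4 isoform tables). Columns of the authors' own comparisons (fold change, test statistic, p, q and significance) were not used, apart from the status entry as a quality mark. Of columns with per-sample values, 0 were left unused, and lines were matched to columns by the table names. The column labels of PC3-EMT14 and of both OVOL lines end in II_trim, whereas that of PC3-Epi reads pc3. What that ending stands for is not given. In comparisons with PC3-Epi, a difference it may mark cannot be told apart from the line.

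Folds were ratios of FPKM without a pseudocount, at 1 FPKM or more in the higher line and above 0 in both, called at 2-fold. Between 75 and 97 genes a table had at least 1 FPKM in 1 line and 0 in the other, and were left out. The counting rule was tested on simulated data without noise, which checks its arithmetic and gives no error rate. Genes named beyond the 10 were, per list, at most 5 past 2-fold by the largest absolute log2 fold, the label, prostate and macrophage markers, and the 3 nearest genes of each simple keratin. Some of the prostate markers are not reported here. Others are said to be chosen after their values were seen. The members and lists were chosen with earlier results of these data known. Positions came from the deposited tables (hg19), overlaps and shared words from GENCODE lifted to that build, and promoters from RefSeq (GRCh38.p14). Alternatives were no minimum or 5 FPKM, a pseudocount of 0.1 or 1 FPKM, 1.5-fold and 4-fold thresholds, centring, and other sums. Python 3.11.15, numpy 2.4.6, pandas 2.3.3 and matplotlib 3.10.9 were used.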

Additional observations from a re-analysis of the deposited data

How the results depend on the processing

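With 1 pooled value a line, no sample could be left out. No paired analysis was possible because the tables carry no value of a single sample. Keratins at least 2-fold higher with OVOL1 numbered 2, but 4 with no minimum, 1 with a minimum of 5 FPKM, 1 with a pseudocount of 1 FPKM, 1 with 1 FPKM required in both lines (chosen after seeing the data), 3 at 1.5-fold and 0 at 4-fold. With OVOL2 they numbered 3, but 5 with no minimum, 2 with a minimum of 5 FPKM or 1 FPKM in both lines, 6 at 1.5-fold and 0 at 4-fold. In PC3-Epi they numbered 4, but 6 with no minimum, 5 at 1.5-fold and 0 at 4-fold, and with no minimum 2 were at least 2-fold lower (KRT5 and KRT38, against 0). Between the OVOL lines the count of 0 became 1 with no minimum and 2 at 1.5-fold. With no minimum these counts include genes under 1 FPKM by construction. Of the single keratin folds set against each alternative, 125 stayed on the same side of the threshold, 7 passed it and 10 no longer did. The 1.5-fold and 4-fold alternatives move the threshold and leave the fold unchanged. All 7 came from the 1.5-fold threshold. The 10 came from the 4-fold threshold, except KRT38 with OVOL1 at a pseudocount of 1 FPKM. Neither a pseudocount nor a moved threshold can turn the direction of a fold, so their unchanged directions carry no information. Centring on all genes moved folds by at most 0.04 on the log2 scale. The ratio of type II to type I was 2.73, 1.16, 1.43 and 2.18 over all keratin genes in PC3-EMT14, the OVOL1 line, the OVOL2 line and PC3-Epi. Over the 10 genes alone it was 0.427, 0.676, 0.929 and 0.966, and, in sums chosen after seeing the data, 0.775, 1.16, 1.43 and 1.08 without KRT81 and 0.656, 0.799, 0.918 and 0.998 without KRT81 to KRT86. Depth and sample spread, which would set the precision of every value, are unknown here.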
